A study of Caenorhabditis elegans with 2 samples.

Results

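The regions are 999 nuclear peaks that overlapped a strong peak in each replicate but fell below the cut of the deposited peak list. They come from chromatin immunoprecipitation followed by sequencing (ChIP-seq) of eGFP-MAB-5, a fusion with green fluorescent protein, in whole Caenorhabditis elegans L2 larvae. They are 999 of the 29976 nuclear peaks of a relaxed list that the authors called on both replicates pooled. They were selected on measured values. A member overlaps no peak of the authors' optimal list, which was thresholded by the irreproducible discovery rate (IDR), and overlaps by at least 1 bp a peak among the 5000 of highest signal in each replicate's own relaxed list. Of the 999 members, 138 shared a replicate peak with a stronger pooled peak. The optimal list holds 2197 peaks, of which 2174 are nuclear, and these IDR peaks are the set against which the members were compared. The single group consists of 2 biological replicates of strain OP27, whose genotype is unc-119(ed3) III with the integrated transgene wgIs27. The larvae were of mixed sex, their age was unknown, and the antibody is listed as mab-5. The transgene means that mab-5 sequence is present beyond the endogenous gene, and whole larvae mix all cell types. There is no control sample among those analysed here and no second condition, and binding by MAB-5 as the source of a peak was not tested.

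MAB-5 is an Antennapedia-class Hox transcription factor. It patterns the posterior body and acts in the descendants of the left Q neuroblast, whose migration it directs. Hox proteins can bind DNA together with homeodomain partners of the PBC class on a shared composite site. The IDR procedure estimates from replicates how many ranked peaks to keep. In these data no pooled peak outside the optimal list had a higher pooled signal than one of its 2197 peaks, so the list is a cut on pooled signal, and a peak found in both replicates falls below it where its pooled signal is lower.

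The following sequences are windows around composite matches in the 5 strongest members that hold such a match, are the strongest pooled peak on their replicate peaks and lie on the chromosomes from which sequences were taken. They are shown because the composite is the motif most directly tied to a Hox factor, and its frequency is compared below. Capitals mark every match to TGATNNAT on either strand, where N is any base. All are read 5′ to 3′ on the plus strand of ce11, from the NCBI RefSeq copy of that assembly.
letm-1, chrV:13658106-13658185: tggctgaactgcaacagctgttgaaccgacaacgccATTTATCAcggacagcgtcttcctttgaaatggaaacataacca
ost-1, chrIV:1108142-1108221: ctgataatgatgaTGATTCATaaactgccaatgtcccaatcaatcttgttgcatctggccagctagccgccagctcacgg
slo-1, chrV:18490602-18490681: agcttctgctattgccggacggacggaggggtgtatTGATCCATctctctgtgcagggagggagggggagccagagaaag
T28D6.4, chrIII:11360298-11360377: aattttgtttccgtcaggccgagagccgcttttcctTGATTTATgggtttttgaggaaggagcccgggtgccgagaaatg
srab-24, chrIV:14260780-14260859: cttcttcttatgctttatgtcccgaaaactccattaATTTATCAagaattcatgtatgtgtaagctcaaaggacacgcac

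Each name is the protein-coding gene whose start is nearest to the summit. The letm-1 member lay between genes, 3112 bp upstream of the gene start, and its composite was centred 1 bp from the summit. It ranked 2200 by pooled signal, 1810 in replicate 1 and 3357 in replicate 2. The ost-1 member lay in an intron 846 bp downstream of the start of the gene, which encodes the matrix protein osteonectin, and ranked 2205, 2431 and 2387 in the same order. The slo-1 member lay 1633 bp upstream of the gene for a calcium-activated potassium channel (ranks 2206, 3432 and 2329). The T28D6.4 member lay 157 bp upstream of its gene (ranks 2245, 3092 and 2320). The srab-24 member lay 10661 bp from the nearest start, that of a chemoreceptor gene (ranks 2256, 1566 and 2156).

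Some other short matches in the members fell in tRNA genes. The next windows show members on X with GCGCAGGG, the core of a motif at loading sites of the X dosage compensation complex, and the strongest members at tRNA genes with GGTTCGA, the core of the internal B box of tRNA promoters. Capitals mark those matches on either strand, again on the plus strand of ce11.
F20B6.9, chrX:4208703-4208782: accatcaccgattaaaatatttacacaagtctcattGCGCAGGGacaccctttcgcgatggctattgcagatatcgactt
stn-2, chrX:7678581-7678660: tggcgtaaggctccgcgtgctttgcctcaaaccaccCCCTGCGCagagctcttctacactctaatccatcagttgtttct
unc-58, chrX:10132692-10132771: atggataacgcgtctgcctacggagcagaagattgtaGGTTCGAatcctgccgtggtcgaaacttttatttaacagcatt
gpc-1, chrX:12889963-12890042: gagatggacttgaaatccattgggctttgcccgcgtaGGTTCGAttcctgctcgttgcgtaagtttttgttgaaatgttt

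The matches in the unc-58 intron and upstream of gpc-1 lay inside tRNA genes, WBGene00014508 and WBGene00014416. The members at F20B6.9, 1210 bp upstream of the start, and in an intron of stn-2 had no annotated tRNA, snRNA, snoRNA, microRNA or rRNA gene over the match.

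The members filled the range of signal directly below the IDR list. Signal is the authors' score, of unknown scale, and was used only to order peaks within a list. Over the 999 members the pooled signal ran from 5.12 to 29.6 with a median of 23.8, against 29.6 to 361 with a median of 44.1 over the nuclear IDR peaks. The members' pooled rank ran from 2198 to 29725 with a median of 3049. In replicate 1 their matched peaks ranked 272 to 4999 (median 3067), and in replicate 2 they ranked 336 to 5000 (median 3307). All these values chose the members or follow from the choice, so no test is given on them. Of all 27570 nuclear pooled peaks that overlap no IDR peak, 3.62% met the replicate condition. That share was 65.4% among those ranked 2198 to 2500, 56.4% at ranks 2501 to 3000, 35.8% at ranks 3001 to 3500, 19.6% at ranks 3501 to 4000 and 8.11% at ranks 4001 to 5000. It was 0.417% beyond rank 10000. Of the nuclear IDR peaks, 2012 of 2174 (92.5%) met the same replicate condition.

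Near the thresholds the values changed in small steps. The 5 members just below the pooled cut lay nearest to B0379.6, cogc-3, letm-1, dhhc-1 and rga-5 and had pooled signals of 29.53 to 29.62, while the 5 IDR peaks just above it had 29.63 to 29.67. The IDR peak of rank 2194, at cdh-4, ranked 858 and 5924 in the replicates, and that of rank 2195, at dsh-1, had no match in replicate 1. The 5 members just inside the replicate cut lay nearest to F52B10.3, tbc-10, F47B10.8, let-391 and Y50D7A.8, with a worse replicate rank of 4986 to 5000. Of the peaks of pooled rank up to 4000 just outside it, the nearest 5 had a worse rank of 5001 to 5018. The signal at rank 5000 was 7.82 in replicate 1 and 10.9 in replicate 2.

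**Figure D1:**
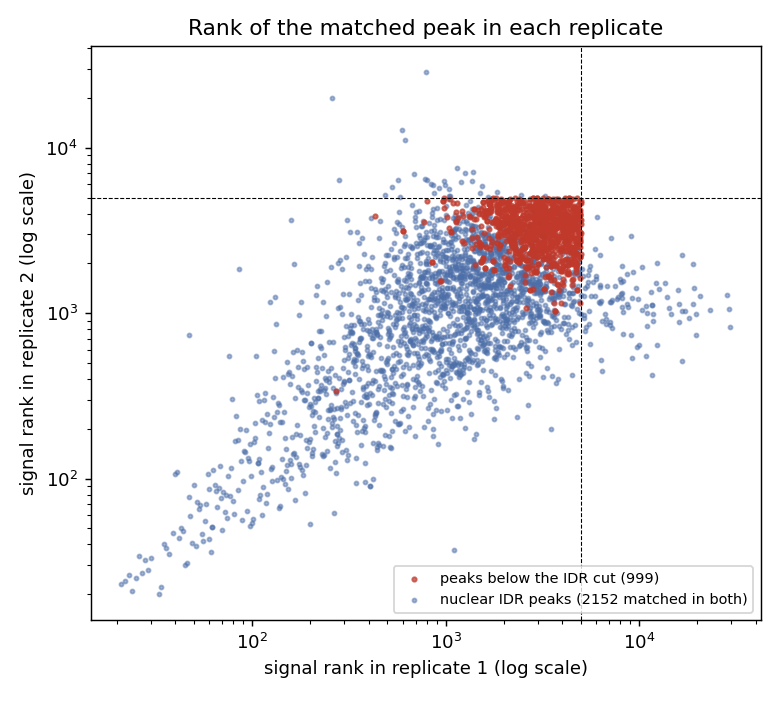
Signal rank in replicate 1 (x axis, log scale) against replicate 2 (y axis, log scale) of the matched peak of each of the 999 members (red) and of the 2152 nuclear IDR peaks matched in both replicates (blue). Dashed lines mark rank 5000, the limit of the rule, and the members sit in the corner below both lines, with ranks of 272 to 4999 in replicate 1 and 336 to 5000 in replicate 2.

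Few members were strong in both replicates on the scale of the IDR list. This follows in part from the rule, so no test is given on these ranks. Only 28 of the 999 ranked within the first 2197 peaks of both replicates, 228 did so in replicate 1 and 144 in replicate 2, and 655 did so in neither. The summit of a member lay a median of 38 bp from its matched summit in replicate 1 and 26 bp in replicate 2, against 15 bp and 10 bp for nuclear IDR peaks. Of the members, 618 had both matched summits within 100 bp. The rule accepts any overlap of at least 1 bp, so these distances also depend on it and were not tested.

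Not every member is a separate event. The 999 members matched 871 peaks of replicate 1 and 872 of replicate 2, and where they overlap they merged into 871 loci, 744 with 1 member, 126 with 2 and 1 with 3. In 861 members (86.2%) the member was the strongest pooled peak on its matched peak in both replicates, and the median pooled rank of these was 2909. The other 138 shared a replicate peak with a stronger pooled peak, and their median pooled rank was 12370. The member of best rank in both replicates was of this kind. It lay at chrIV:7320132-7320475, 3201 bp upstream of F42C5.9, ranked 272 and 336, and had a pooled rank of only 24141, and its summit was 208 bp from the summit of an IDR peak. Since peaks of a list share their libraries and some share a replicate peak, the tests below compare sets of peaks and their intervals cover counting error only. The read depth is unknown, because the lists hold no read counts.

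Members lay farther from gene starts than IDR peaks and more often inside genes. A promoter window, which reached 2000 bp upstream and 500 bp downstream from the start of a protein-coding gene, held the summit of 488 of 999 members (48.8%, 95% Wilson interval 45.8 to 51.9), against 1302 of 2174 IDR peaks (59.9%, 57.8 to 61.9). The difference was −11.04 percentage points (95% interval −14.7 to −7.31; Fisher's exact test, two-sided, adjusted exact p = 2.48e-08 over 7 location tests). Summits between protein-coding genes made up 58.4% of members and 69.96% of IDR peaks (−11.6 points, −15.2 to −8.005, adjusted exact p = 1.41e-09). Introns held 31.8% of members and 24.8% of IDR peaks (7.04 points, 3.67 to 10.5, adjusted exact p = 7.44e-05). Coding exons held 39 members (3.90%) and 26 IDR peaks (1.196%), a difference of 2.71 points (1.54 to 4.15, adjusted exact p = 5.09e-06). These calls were the same with each replicate's own summits in place of the pooled summits. They also held for the 861 members left with 1 peak per replicate peak, a subset chosen after seeing the data. There the coding exon difference shrank to 1.71 points (adjusted exact p = 0.00279). Where the condition was asked of a single replicate, more peaks qualified and the coding exon difference grew to 6.58 points without replicate 1 and 9.38 points without replicate 2. Among the 618 members with both replicate summits within 100 bp, a subset chosen after seeing the data, the differences in introns (4.66 points, adjusted exact p = 0.0511) and coding exons (0.908 points, adjusted exact p = 0.205) missed the threshold, while those in promoter windows and between genes passed.

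**Figure D2:**
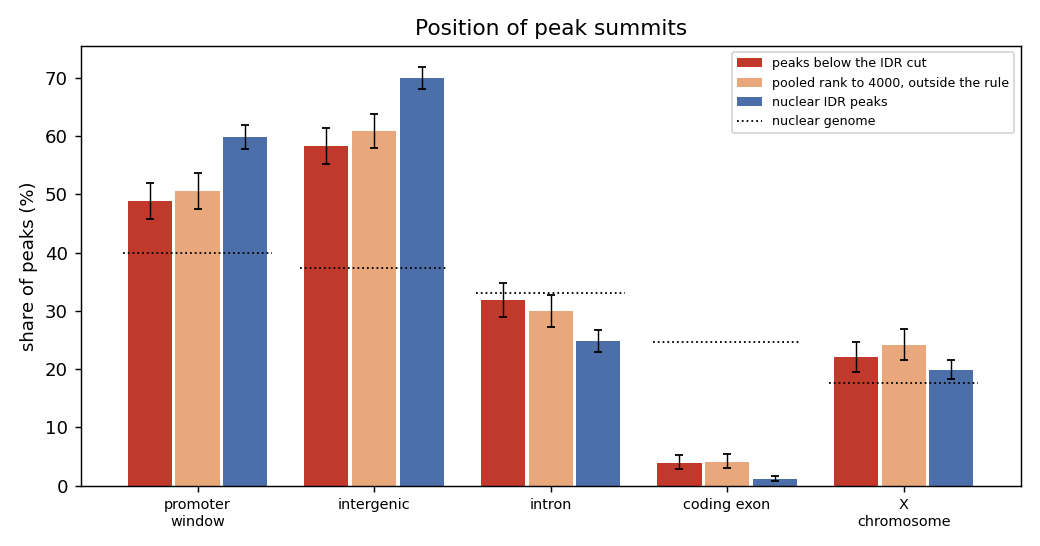
Share of summits in % (y axis) by position (x axis) for the 999 members (red), 1026 peaks of pooled rank up to 4000 that miss the replicate condition (orange) and 2174 nuclear IDR peaks (blue). Bars carry 95% Wilson intervals and dotted lines give the share of the nuclear genome, and the members stand at 48.8% in promoter windows beside 50.6% and 59.9% in the other two sets.

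The distances to gene starts differed in the same way. A member's summit lay a median of 1466 bp from the nearest protein-coding start, against 884 bp for IDR peaks. Within 500 bp lay 28.5% of members and 41.8% of IDR peaks, and beyond 5000 bp lay 15.7% of members and 11.5% of IDR peaks. The summit was upstream of the nearest start in 58.0% of members and 69.7% of IDR peaks. Among summits inside promoter windows, 400 of 488 (82.0%) were upstream in members and 1186 of 1302 (91.1%) in IDR peaks. The sequence in the 201 bp around the summit had a median GC content of 41.8% in members and 43.3% in IDR peaks, and a median soft-masked share of 20.4% and 19.4%, against 35.7% of the genome.

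The promoter share fell from bin to bin of pooled rank among IDR peaks, and among members it did not fall at every step. IDR peaks ranked 1 to 500 lay in promoter windows in 66.9% of cases, those ranked 501 to 1000 in 62.2%, those ranked 1001 to 1500 in 58.4% and those ranked 1501 to 2197 in 54.5%. Members ranked 2198 to 2500 gave 49.2%, those ranked 2501 to 3000 gave 48.7%, those ranked 3001 to 4000 gave 53.9% and those beyond 4000 gave 43.3%. That last bin holds most of the 138 members that shared a replicate peak with a stronger pooled peak, whose lower quartile of pooled rank was 6891. On either side of the cut the intervals overlap, at 42.3 to 56.2 for members ranked 2198 to 2500 and 50.8 to 58.2 for IDR peaks ranked 1501 to 2197. Against the 999 weakest IDR peaks the members' promoter share was lower by a smaller margin (−7.81 points, −12.1 to −3.43, Fisher's exact test, adjusted exact p = 0.00195).

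**Figure D3:**
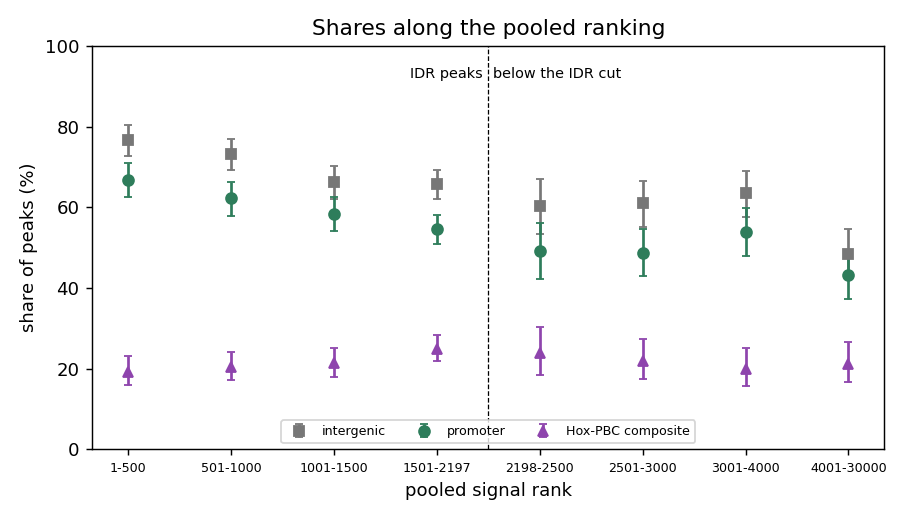
Share of summits in % (y axis) between protein-coding genes (grey), in promoter windows (green) and with a Hox-PBC composite (purple) by pooled signal rank (x axis, strongest at left), with 95% Wilson intervals. The dashed line separates IDR peaks at left from members at right, and the promoter share runs from 66.9% in the strongest bin to 43.3% in the weakest while the composite share stays between 19.3% and 24.96%. The weakest bin holds most of the 138 members that shared a replicate peak with a stronger pooled peak.

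Members differed from the list below the cut as a whole. No difference passed the test once both sets were limited to a pooled rank of at most 4000. Over the members' whole range of pooled rank, the comparison was with 26300 peaks that missed the condition. Members were more often in promoter windows (48.8% against 41.0%, 7.88 points, adjusted exact p = 1.22e-06), between genes (58.4% against 38.0%, 20.3 points, adjusted exact p = 1.28e-36) and at tRNA starts (3.20% against 1.12%, 2.08 points, adjusted exact p = 8.86e-07). They were also more often on X (4.88 points, adjusted exact p = 0.000121) and in autosome centres (12.4 points, adjusted exact p = 1.96e-11). They were less often in coding exons (3.90% against 22.9%, −19.01 points, adjusted exact p = 4.35e-61). Composites occurred in 21.6% of members and 16.9% of these peaks (4.71 points, adjusted exact p = 0.000642), and GAGAGAGA in 12.2% and 3.44% (8.77 points, adjusted exact p = 3.52e-30). CACGTG, at 1.43 points, GGTTCGA, at 1.57 points, and GCGCAGGG, at 0.321 points, were also more frequent in members, and TAATTA, at −2.87 points, and TGATAAG, at −1.29 points, less frequent (adjusted exact p from 0.00178 to 0.0357). Introns and TGACAG missed the threshold in this comparison. The median pooled rank of members was 3049, whereas most of that comparison list lies far lower. When both sets were limited to a pooled rank of at most 4000, a limit chosen after seeing the data, 745 members stood against 1026 peaks and none of the 7 location results or the 8 motifs passed. The sets share that limit but were not matched by rank. Of the 745 members 474 ranked up to 3000, while the other peaks had a median pooled rank of 3331.5. Promoter windows then held 50.7% of members and 50.6% of the others, a difference of 0.153 points (−4.55 to 4.86, adjusted exact p = 0.962). Coding exons held 2.28% and 4.09% (−1.81 points, −3.45 to −0.107, adjusted exact p = 0.305). The largest motif difference was that of GAGAGAGA, at 12.9% and 9.26% (3.63 points, 0.688 to 6.69, Fisher's exact test, adjusted exact p = 0.129). Against the IDR peaks these 745 members kept a lower promoter share (−9.15 points, −13.3 to −5.02), and their coding exon share was no longer past the threshold (1.09 points, 0.0711 to 2.48, adjusted exact p = 0.0706).

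Members were spread over all chromosomes. X carried 220 members (22.02%), against 432 IDR peaks (19.9%) and 17.7% of the nuclear genome, and the difference from IDR peaks missed the threshold (2.15 points, −0.856 to 5.28, adjusted exact p = 0.199). Chromosome III carried 169 members (16.9%) with 13.7% of the genome, chromosome II 165 (16.52%, 15.2% of the genome), chromosome I 161 (16.12%, 15.03%), chromosome V 151 (15.1%, 20.9%) and chromosome IV 133 (13.3%, 17.4%). The inner 40% of the autosomes held 452 of 779 autosomal members (58.0%), against 51.7% of autosomal IDR peaks (6.36 points, 2.15 to 10.5, adjusted exact p = 0.00461). By chromosome the centre shares of members and IDR peaks were 61.5% and 50.5% on I, 64.2% and 55.1% on II, 51.5% and 49.9% on III, 47.4% and 49.3% on IV, and 64.2% and 54.1% on V. The excess was thus seen on 4 of 5 autosomes. It missed the threshold in 5 of the 11 alternatives run, among them the peaks selected without replicate 2 (1.60 points, adjusted exact p = 0.367). On the autosomes promoter windows held 51.5% of members and 62.3% of IDR peaks, and on X they held 39.5% and 50.2%.

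No difference in the frequency of Hox-PBC composites between members and IDR peaks passed the test. TGATNNAT, searched on both strands within 100 bp of the summit, occurred in 216 of 999 members (21.6%, 19.2 to 24.3) and in 21.8% of IDR peaks. The difference was −0.228 points with an interval of −3.25 to 2.92 (Fisher's exact test, adjusted exact p = 0.926 over 8 motifs). Selection without replicate 2 gave a lower share than in IDR peaks (−3.68 points, adjusted exact p = 0.00417), and selection without replicate 1 did not pass (−1.29 points, adjusted exact p = 0.408). Of all windows of the same length tiling the nuclear genome, 15.4% hold the motif. Within 50 bp of the summit members had 159 sites, or 7.96 per 100 peaks per 50 bp, against 4.35 at 300 to 500 bp, a ratio of 1.83. In IDR peaks the corresponding densities were 8.72 and 4.58, a ratio of 1.90. The composite was present in 24.1% of members outside promoter windows (123 of 511) and in 19.1% of those inside (93 of 488). It was present in 21.7% of autosomal members and 21.4% of those on X. A match is a description of the letters and not evidence of a bound site.

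**Figure D4:**
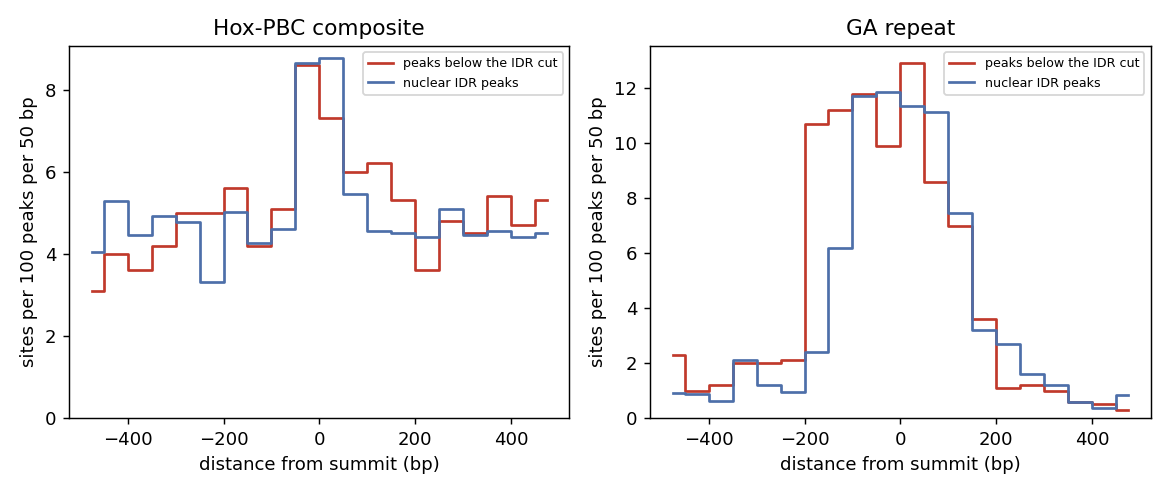
Sites per 100 peaks per 50 bp (y axis) by distance from the summit in bp (x axis) for the Hox-PBC composite (left) and the GA repeat (right), in members (red) and nuclear IDR peaks (blue). Composite density within 50 bp of the summit was 7.96 in members and 8.72 in IDR peaks, and that of the GA repeat, whose overlapping matches are all counted, was 11.4 and 11.6.

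None of the other 7 motifs passed against IDR peaks with the members as defined, though 5 of them passed under at least 1 alternative choice of peaks or summits. GAGAGAGA, a GA repeat, occurred in 122 of 999 members (12.2%) and 274 of 2174 IDR peaks, against 1.32% of genome windows, with a difference of −0.391 points (−2.78 to 2.16). Selected without replicate 1 or without replicate 2, the larger sets of peaks held it less often than IDR peaks (−4.18 and −3.73 points, adjusted exact p = 8.53e-06 and 0.000125). The MEIS-type site TGACAG occurred in 8.01% of members and 8.56% of IDR peaks (genome 6.77%). The homeodomain core TAATTA occurred in 5.51% and 5.01%, below the 9.32% of the genome. The E-box CACGTG occurred in 5.31% and 5.70% (genome 3.33%), and the GATA-type site TGATAAG in 2.40% and 2.35% (genome 3.47%). GCGCAGGG occurred in 4 members and 20 IDR peaks, 3 and 19 of them on X, and in 0.0605% of genome windows. GGTTCGA occurred in 33 members (3.30%) and 2.48% of IDR peaks (0.819 points, −0.380 to 2.24, adjusted exact p = 0.794), and 17 of those 33 lay within 500 bp of a tRNA start. With replicate 1's summits the GGTTCGA difference was 1.94 points (adjusted exact p = 0.0367), and with those of replicate 2 it missed the threshold. No motif of the 8 was found in 523 members (52.4%) and 1145 IDR peaks (52.7%).

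**Figure D5:**
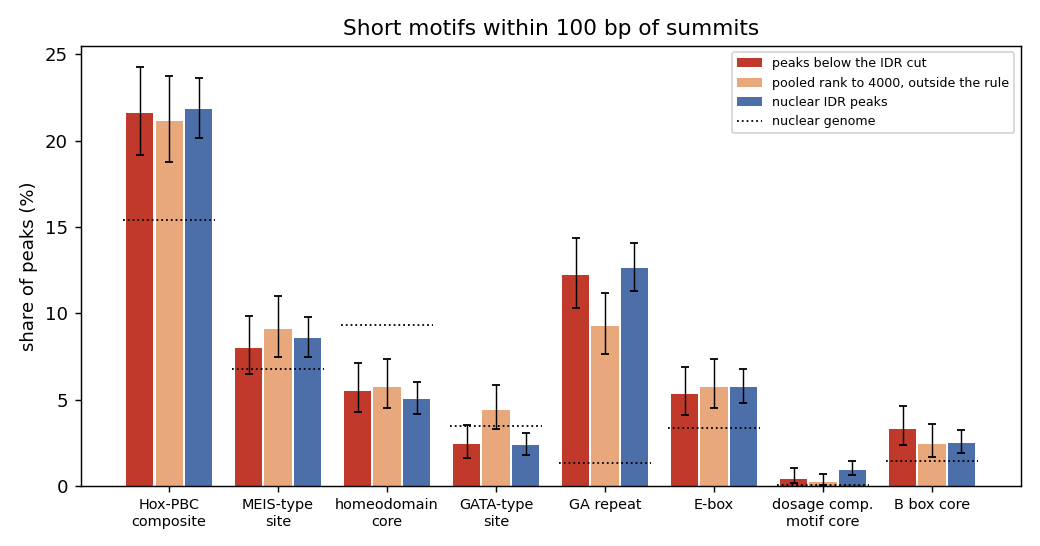
Share of peaks in % (y axis) with each of 8 short motifs (x axis) within 100 bp of the summit, in 999 members (red), 1026 peaks of pooled rank up to 4000 outside the rule (orange) and 2174 nuclear IDR peaks (blue), with 95% Wilson intervals. Dotted lines give the share of genome windows of equal length, and for every motif the difference between members and IDR peaks missed the threshold, with composites at 21.6% and 21.8%.

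The 20 members of highest pooled signal lay at varied genes. Their summits lay between genes in 13, in introns in 6 and in a coding exon in 1, and 9 were in promoter windows. Over all 999 members 58.4% lay between genes and 48.8% in promoter windows, so nothing is read as particular to the 20. Those in promoter windows included dhhc-1, a palmitoyltransferase gene (301 bp upstream, pooled signal 29.6, replicate signals 15.1 and 15.8), and C50E3.5 (142 bp upstream, pooled signal 29.5, replicate signals 8.32 and 23.1). They also included swsn-7, which encodes a chromatin remodelling subunit (690 bp upstream, pooled signal 29.4, replicate signals 16.7 and 19.7), and jmjd-2, a histone demethylase gene (1093 bp upstream, pooled signal 29.3, replicate signals 11.5 and 14.4). The others in promoter windows were B0379.6, rga-5, slo-1, dhhc-3 and F35H12.1. Outside promoter windows lay those nearest to cogc-3, a Golgi tethering complex gene (intron, 4303 bp downstream), letm-1, ost-1, ruvb-1, C47A4.1, oga-1, which encodes the enzyme that removes O-linked N-acetylglucosamine (4268 bp from the start), F47F2.3, the formin-related gene frl-1, R06A10.4, F57G12.1 and Y67D8A.2. Replicate ranks were often unequal: the C47A4.1 member ranked 3666 in replicate 1 and 1030 in replicate 2, and the R06A10.4 member ranked 2101 and 4711.

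Some members ranked high in both replicates although their pooled rank was lower. The F57G12.1 member, on X and 2886 bp upstream of the start, ranked 943 and 1554 (replicate signals 20.8 and 22.5) but 2227 in the pooled list. A member on X at chrX:14491042-14491385, nearest to his-24, a linker histone gene, ranked 939 and 1570 but 3793 when pooled, and its summits in the replicates were 133 bp and 230 bp away. A pair of overlapping members at F13E9.11 on chromosome IV shared the ranks 1784 and 1813. Another pair upstream of unc-85, which encodes an Asf1-type histone chaperone, shared 1605 and 1870, with pooled ranks of 2399 and 4834. A pair between F48E8.8 and paa-1, a protein phosphatase 2A scaffold gene, shared 2015 and 1954, with pooled ranks of 2395 and 22320. Within each pair the weaker member was the neighbour of a stronger pooled peak on the same replicate peak. The swsn-7 member, at ranks 1417 and 1955, completed the 10 best in both replicates, of which 7 lay in promoter windows. These 7 count both members of each pair, so they are not separate events, and 48.8% of all members lay in promoter windows.

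The members lay in the promoter windows of 580 genes, and the share of these without an IDR promoter peak was close to that over all genes. Of 19973 nuclear protein-coding genes, 580 (2.9%) had a member in the promoter window, against 1916 (9.59%) with an IDR peak. Of the 580 genes, 537 (92.6%) had no IDR summit in the window and 43 had both, and of all 19973 genes 18057 (90.4%) had none. By the nearest start, members lay at 796 distinct genes, of which 205 were also the nearest gene of an IDR peak. The same share over all genes was not counted, so this overlap is not read as high or low. Counting only members that were the strongest on their replicate peaks, 69 of 782 nearest genes had at least 2 and 9 had at least 3. ZK112.4 had 4, and F57G12.1, T01D3.1, T28B11.1, magi-1, mak-1, mnk-1, nck-1 and unc-49 had 3 each. These counts have no background over all genes or IDR peaks beside them, so none is read as high.

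The lists that follow are described by their counts, to be read beside the 2.9% of all genes with a member in the promoter window and the 9.59% with an IDR peak. Of 81 cytosolic ribosomal protein genes, 6 (7.41%) had a member in the promoter window, and none of the 6 had an IDR peak there, while 55 of the 81 did. The 4 strongest members were at rps-8 (225 bp upstream, pooled signal 28.9, ranks 1816 and 3507), rpl-34 (438 bp upstream, pooled signal 28.5, ranks 2278 and 2608), rpl-18 (168 bp upstream, pooled signal 25.4, ranks 2515 and 4634) and rps-27 (572 bp upstream, pooled signal 23.9, ranks 1914 and 3124). The other two were at rps-3 and rpl-30. Genes of mitochondrial ribosomal proteins gave 3 of 70, mrps-35, mrps-6 and mrps-31, against 19 with an IDR peak. No histone gene of 50 had a member in the window, and 14 had an IDR peak.

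Of 28 Wnt pathway genes, 2 (7.14%) had a member in the promoter window and no IDR peak there. The member at cwn-1, a Wnt ligand gene, lay 481 bp upstream (pooled signal 29.1, ranks 2022 and 2053). That at mig-1, a Frizzled receptor gene, lay 25 bp upstream (pooled signal 26.9, ranks 2848 and 3327), and mig-1 was also the nearest gene of IDR peaks ranked 203 and 448, outside the window. Of the 28, 9 had an IDR peak in the window (32.1%). Among 33 genes of Q neuroblast migration and axon guidance, 3 (9.09%) had a member and no IDR peak in the window. Among them were mig-6, which encodes the matrix protein papilin (597 bp upstream, pooled signal 23.6), and mig-21, which acts in Q neuroblast migration (1212 bp upstream, pooled signal 20.4). IDR peaks were in the window of 4 of the 33 (12.1%).

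Of 13 heterochronic genes, which time larval stages, 3 (23.1%) had a member and no IDR peak in the window, and 5 (38.5%) had an IDR peak. Outside the window, lin-28 was the nearest gene of an IDR peak ranked 200, and hbl-1 of IDR peaks ranked 283 and 798. The member at lin-28, which encodes an RNA-binding protein, lay 616 bp upstream (pooled signal 23.6, ranks 3213 and 3713). The member at the Argonaute gene alg-1 lay 744 bp upstream (pooled signal 22.3, ranks 4529 and 3320), and that at hbl-1, a hunchback-like transcription factor gene, 1890 bp upstream (pooled signal 15.7, ranks 4113 and 2698). Of 30 motor and touch neuron genes, 5 (16.7%) had a member and 9 (30%) an IDR peak. Those with a member were the synaptobrevin gene snb-1 (pooled signal 28.6), unc-49, which encodes a GABA receptor (25.8), the carboxypeptidase gene egl-21 (24.3), rgef-1 (20.8) and the vesicular GABA transporter gene unc-47 (19.7). Of these, snb-1 and rgef-1 also had an IDR peak in the window.

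Of 31 body wall muscle genes, 3 (9.68%) had a member, the actin gene act-3, unc-87 and the parvin gene pat-6, and 7 had an IDR peak (22.6%). Of 29 heat shock and stress genes, 9 (31.0%) had an IDR peak and 3 (10.3%) had a member, the transcription factor genes atf-4 and hsf-1 and the chaperone gene hsp-3, and hsp-3 also had an IDR peak. Of 15 M lineage mesoderm genes sma-9 had a member, and of 20 seam, ray and epidermal fate genes none had. Homeobox genes named ceh gave 1 of 63, ceh-39, with a member 176 bp upstream (pooled signal 29.01, ranks 1861 and 2917).

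Large gene families had few members, and few IDR peaks, in their promoter windows. Of 1283 chemoreceptor genes 3 had a member (0.234%), sre-1, sri-72 and srh-2, and 12 had an IDR peak (0.935%). Of 315 F-box genes 3 had a member (0.952%), fbxa-128, fbxc-23 and fbxa-95, and 5 had an IDR peak. Nuclear hormone receptor genes gave 3 of 269, nhr-21, nhr-105 and nhr-88, collagen genes 2 of 156, col-63 and col-85, and neuropeptide genes 2 of 140, nlp-4 and nlp-76. The counts are few, and all these lists were chosen with earlier results known, so nothing is read as particular to a list.

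Of the Hox genes, mab-5 and lin-39 had members nearby. The median over all genes was 0 members within 20 kb of the start, so a count of 0 is the usual one. Within 20 kb of the mab-5 start lay 4 members in 2 overlapping pairs and 12 IDR peaks, and 163 of the 19973 genes had 4 or more members at that distance. Each member of an overlapping pair is counted there, and the IDR peak counts were not set against those of all genes. For all 4 members the nearest protein-coding start was that of another gene, bath-15. The strain also carries mab-5 sequence in its transgene, and any effect of it on the signal at mab-5 was not tested. The first pair, at chrIII:7775970-7776313 and chrIII:7776170-7776513, lay between genes downstream of mab-5 and shared replicate ranks of 2400 and 2040, with pooled signals of 21.5 and 5.35. The second pair, at chrIII:7779100-7779443 and chrIII:7779351-7779694, lay in an intron and shared ranks of 2347 and 3289, with pooled signals of 13.7 and 12.8. A composite near the summit was found in none of these 4. Around lin-39, needed in the mid-body, 2 overlapping members lay in an intron 4526 bp and 4326 bp downstream of the start, beside 11 IDR peaks, and 1712 genes had 2 or more members at that distance. Their pooled signals were 25.5 and 13.9, and they shared ranks of 2115 and 3603. The weaker of them held a composite, shown here with the match in capitals on the plus strand of ce11.
lin-39, chrIII:7532341-7532406: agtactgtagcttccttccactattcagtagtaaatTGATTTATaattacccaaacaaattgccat

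No member lay within 20 kb of ceh-13, egl-5, nob-1 or php-3. The 6 Hox genes had no member in a promoter window, while 3 of them had an IDR peak, and of the 5 Hox cofactor genes none had a member and 1 had an IDR peak.

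The members were not evenly spaced, and 7 was the most found within 20 kb of any protein-coding gene start. On chromosome III 7 members in 6 loci lay between 7720882 and 7730977, within 20 kb of the start of ncl-1, beside 3 IDR peaks, with pooled signals of 13.9 to 27.8. On chromosome V 7 members in 6 loci lay between 13657973 and 13690713, around mip-2, and 7 in 4 loci lay between 10717472 and 10731359, near mre-11, a DNA repair gene. On chromosome II 7 members in 5 loci lay around vhp-1, a MAP kinase phosphatase gene. An IDR summit lay within 5000 bp of 38.4% of members, against 33.4% of peaks of pooled rank up to 4000 outside the rule and 32.9% of IDR peaks with another IDR summit at that distance. The share was 35.4% among members ranked up to 4000. The median distance to the nearest other IDR summit was 8228 bp for members and 11064.5 bp for IDR peaks. These differences were not tested.

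Non-coding genes held a small part of the members. Of the 999 summits, 32 (3.20%) lay within 500 bp of a tRNA start, against 2.67% of IDR peaks (0.535 points, −0.665 to 1.95, adjusted exact p = 0.421), and 16 of the 32 were on X, against 34 of 58 in IDR peaks. Within the same distance of a snoRNA start lay 18 members (1.80%) and 61 IDR peaks (2.81%). Small nuclear RNA starts had 3 members and 16 IDR peaks, and microRNA starts 4 members and 11 IDR peaks. These last 3 classes were counted and not tested.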

How the data were processed

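The authors deposited peak lists on ce11 and ce10 and no reads. Per the text record deposited beside the lists, a relaxed list was made against a control alignment for either replicate and for the pooled alignments, and the optimal list derives from these. Each list gives the authors' signal score, a deposited −log10 q-value with a ceiling, and a summit offset that the authors placed in the last column; the p-value column is unfilled. The sources used here do not give the aligner, the peak caller, versions or the threshold of the IDR. Depth is unknown.

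All analyses used ce11 except a count on ce10. Genes came from Ensembl release 115 and sequence from NCBI RefSeq, both for WBcel235. Summits were classified by position, and shares of peaks were compared with Fisher's exact test, two-sided, Newcombe 95% intervals of differences and Benjamini-Hochberg adjustment over 7 location and 8 motif tests, with a threshold of 0.05. Mitochondrial peaks were left out, and a few items, among them a gene that the naming rule would give, are not reported here. The members, the 19 gene lists and the motifs were chosen with earlier results of these data known. Genes named were those of the 20 members of highest pooled signal, the 10 of best worse-replicate rank, the 5 just inside each threshold, up to 4 per gene list by strongest member, and those within 20 kb of Hox starts; other names, among them those beyond 4 in a list, were chosen after their values were seen. The functions were tested on simulated data. Python 3.11.15, numpy 2.4.6, pandas 2.3.3, scipy 1.17.1 and matplotlib 3.10.9 were used.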

Additional observations from a re-analysis of the deposited data

How the results depend on the processing

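No paired analysis was possible because the series has a single group of 2 replicates. The number of members was 979 on ce10 and 779 with an overlap of at least 50% of both peaks. It was 8 with the 2000 highest peaks of each replicate and 2834 with the 10000 highest. Leaving out a replicate from the condition gave 3065 to 3099. Differences below are members minus IDR peaks in percentage points, and adjusted p-values are from Fisher's exact test.

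The promoter share kept its direction and call in 11 of 12 alternatives, the intergenic share in 9 of 10, the intron and coding exon shares in 8 of 10 each, and the X share missed the threshold in all 10. With the 2000 highest peaks only 8 members were left, and the signs turned for the promoter (2.61), intergenic (5.04), intron (−12.3), coding exon (−1.20) and tRNA (−2.67) shares and for GGTTCGA (−2.48) and TGATAAG (−2.35), with no call. The autosome centre share lost its call there (48.3), with the 10000 highest peaks (3.00) and with 50% overlap (3.62). It also lost it with summits within 100 bp in both replicates (3.20), where 618 members were left and the intron (4.66) and coding exon (0.908) shares lost theirs. Leaving out each replicate gave 1.60 to 4.69 for the centre share, −0.123 to 0.172 for the tRNA share and −3.68 to −1.29 for the composite, which passed without replicate 2.

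Some motifs gained a call. GAGAGAGA was lower in the selected peaks with the 10000 highest peaks (−2.86), without replicate 1 (−4.18) and without replicate 2 (−3.73), as was GCGCAGGG (−0.673, −0.726 and −0.594). TAATTA was higher with the 10000 highest (1.76) and without replicate 2 (1.58), TGATAAG without replicate 1 (1.17) and GGTTCGA with replicate 1's summits (1.94).

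Results near 0 changed sign without a call. The composite gave 0.693 within 250 bp and 0.523 with replicate 2's summits. Against the weakest IDR peaks the tRNA share gave −0.200, TGATAAG −0.200 and GAGAGAGA 0.801. GAGAGAGA gave 0.362 with 50% overlap. Replicate 1's summits gave 0.371 for TGACAG and −0.609 for TGATAAG, and 1 peak per replicate peak gave 0.220 for CACGTG.

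Limiting the comparison with peaks outside the rule to a pooled rank of at most 4000, chosen after seeing the data, ended every call. Promoter windows gave 0.153, intergenic sequence 0.829, coding exons −1.81, tRNA starts 0.456, autosome centres 3.78, the composite 0.595 and GAGAGAGA 3.63. The X share (−1.89), the intron share (0.414) and TGACAG (−0.339) changed sign. The cause was not tested in any of these cases. The rules themselves give smaller or larger sets, and the effect of set size was not tested either.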
